A study of Homo sapiens with 6 samples.

Results

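The oligoadenylate synthetase (OAS) family of 4 genes, OAS1, OAS2, OAS3 and OASL, was examined by RNA sequencing in cells that the labels call LNCaP, a human prostate cancer line. The members were found by gene symbol among the 25969 genes of the deposited tables, and all 4 have a row. The family was chosen by the measured difference between the groups, in which OASL and OAS3 stood higher with VIM-AS1, so that difference is described below without a test. The groups were 3 libraries of cells transfected with a VIM-AS1 overexpression vector, labelled as overexpressing genotype, and 3 libraries of cells given the empty expression plasmid pcDNA3.1, labelled wild type. VIM-AS1 is a long noncoding RNA read from the strand opposite the vimentin gene, and LNCaP is an androgen-responsive line grown from a lymph node metastasis. Both groups therefore carried a plasmid, and no untransfected cells were analysed here. Whether replicates are separate cultures, and whether the transfection was stable, is not stated, so the spread between libraries may be technical.

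OAS enzymes are activated by double-stranded RNA and join ATP into short 2-5A oligomers, which act as second messengers of the antiviral response. OAS1 holds a single synthetase unit, while OAS2 and OAS3 are built of repeated units. OASL has lost the enzyme activity, carries ubiquitin-like domains at its end, and is known to strengthen signalling by the RNA sensor RIG-I and to restrain the DNA sensor cGAS. The family is classed among interferon-stimulated genes, whose promoters often hold the interferon-stimulated response element (ISRE), and OASL can also be switched on directly by the factor IRF3.

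All 4 genes lie on chromosome 12 (GRCh38, GENCODE 29). OAS1 (ENSG00000089127, chr12:112906777-112933222), OAS3 (ENSG00000111331, chr12:112938352-112973249) and OAS2 (ENSG00000111335, chr12:112978395-113011723) follow each other on the plus strand within 104.9 kb, with gaps of 5129 and 5145 bp. OASL (ENSG00000135114, chr12:121019111-121039242) lies 8.01 Mb further on, on the minus strand. The longest annotated coding sequence is 1242 bp for OAS1, 2178 bp for OAS2, 3261 bp for OAS3 and 1542 bp for OASL. Exons together span 4947 bp in OAS1, 6264 bp in OAS2, 8251 bp in OAS3 and 3517 bp in OASL. No 50-base stretch of any member's annotated transcripts occurs in another member, so the paralogs are distinct at that length. In OAS1 and OAS3, 1.07% and 0.615% of such stretches also occur in transcripts of genes outside the family. The only gene that overlaps member exons is an antisense RNA, AC004551.1, over 92 bp (1.86%) of the OAS1 exons. It had a value of 2.94 in VIM-AS1 replicate 2 and was listed at 0 in the other 5 libraries.

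Promoter windows are shown for OAS1 and OAS3, the only 2 members with a window in the promoter set used. OASL and OAS2 had none, so their promoters were not searched. The sequences run from 250 bases before to 50 bases after the annotated start (RefSeq, GRCh38.p14, plus strand, chr12:112906712-112907011 and chr12:112938224-112938523). Capitals mark matches to 2 forms of the ISRE core, searched on both strands: GAAA and GAAA parted by any 2 bases (the 2-base form), and GAAANGAAA, parted by 1 base (the 1-base form). The 1-base form was added after the sequences had been read.
OAS1: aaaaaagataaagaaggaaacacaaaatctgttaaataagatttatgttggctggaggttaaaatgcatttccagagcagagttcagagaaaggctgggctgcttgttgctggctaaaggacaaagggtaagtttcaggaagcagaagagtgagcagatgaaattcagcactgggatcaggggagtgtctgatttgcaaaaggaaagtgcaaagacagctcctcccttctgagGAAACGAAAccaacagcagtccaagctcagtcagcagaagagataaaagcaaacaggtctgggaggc
OAS3: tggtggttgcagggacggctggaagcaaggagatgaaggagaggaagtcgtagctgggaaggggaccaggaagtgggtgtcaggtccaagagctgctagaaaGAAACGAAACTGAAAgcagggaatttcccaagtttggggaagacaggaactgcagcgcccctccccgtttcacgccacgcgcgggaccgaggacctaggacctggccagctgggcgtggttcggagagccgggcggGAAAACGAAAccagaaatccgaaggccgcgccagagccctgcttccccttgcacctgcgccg
In the OAS3 window the 2-base form matched at bases -143 to -134 and -12 to -3 from the start, counted as 0, and the 1-base form matched at -148 to -140, overlapping the farther of them. The OAS1 window held no match to the 2-base form and 1 match to the 1-base form, at -17 to -9. It also held TTCNNNGAA, the core of the interferon-gamma activated (GAS) element, at -168 to -160. Of 35116 windows of the same length, 3.57% held the 2-base form, 3.12% the 1-base form and 7.66% held TTCNNNGAA. A match is a description of letters and not a measured binding site.

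Before the family is described, some facts of all libraries bear on it. The libraries held 14762893 to 19889745 recovered reads. Levels are given as normalized reads, the gene's reads divided by 1 size factor per library, and in bulk RNA fewer cells of a type and less RNA per cell cannot be told apart. VIM-AS1 itself stood at 2019 to 2763 normalized reads in the overexpression libraries and at 1.22 to 8.63 in the controls, as the labels say. The markers of the labelled line were partly absent. The prostate-specific antigen gene KLK3 was listed at 0 in 5 libraries and had 2 reads in control replicate 1, and FOLH1, which encodes prostate-specific membrane antigen, had at most 4 reads. The epithelial keratin gene KRT8 was at 51008 to 90151 in the overexpression libraries and 55112 to 99727 in the controls. The summed level of the 3 leukocyte markers with a row, of 7 listed, was 40.2 to 46.4 with VIM-AS1 and 43.4 to 75.7 in controls. That of 5 fibroblast markers was 1773 to 2543 with VIM-AS1 and 2862 to 3709 in controls, with COL1A2 and LUM at 2 reads or fewer in every library. The fibroblast sum thus stood lower with VIM-AS1, with PDGFRB at 985.5 ± 162 with VIM-AS1 and 1489 ± 381 in controls, COL1A1 at 1108 ± 244 with VIM-AS1 and 1506 ± 125 in controls, and DCN at 100.1 ± 16.1 with VIM-AS1 and 252.6 ± 77.4 in controls (SD, n = 3 each). The sum of 3 endothelial markers was 64.5 to 108.8 with VIM-AS1 and 33.2 to 64.7 in controls, and PECAM1 was listed at 0 in all but control replicate 3. Of the other endothelial markers, VWF was at 75.7 ± 21.9 with VIM-AS1 and 35.5 ± 13.4 in controls. CDH5 was at 12.6 ± 1.89 with VIM-AS1 and 12.6 ± 6.10 in controls, so the sum moved with VWF. The share of reads from genes of the mitochondrial genome was 5.57% to 7.06% with VIM-AS1 and 8.73% to 14.3% in controls. The part of these shifts in the results below was not tested. Replicate 3 of each group stood apart from replicates 1 and 2. Control replicates 1 and 2 also differed from each other. Their chi-square over degrees of freedom was 41.4, against 7.14 for VIM-AS1 replicates 1 and 2.

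OASL was the member with the widest gap between the groups. It had 221.2, 175.4 and 122.8 normalized reads in VIM-AS1 replicates 1 to 3, and 7.67, 10.995 and 5.53 in the control replicates. Every overexpression library was above every control, by more than 10-fold. These values rest on 210, 179 and 120 reads in the overexpression libraries and on only 8, 9 and 7 reads in the controls. The exact 95% Poisson intervals of the control counts reach from 2.81 to 17.1 reads and cover counting error alone. On the log2(value + 1) scale, which understates changes of low genes, the difference was 4.27 ± 0.37 (SE, limma), with 4.68, 3.88 and 4.24 over same-numbered libraries. Only 1 of 20927 tested genes, VIM-AS1, had a larger positive difference. In the overexpression group, OASL in the third library was 0.68 log2 units under the mean of the first and second. In the control group it was 0.64 under the mean of the first and second, on 7 reads against 8 and 9. The Poisson intervals of these control counts overlap, so whether the groups shared such a shift cannot be told.

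OAS3, the longest synthetase, was the most abundant member in the overexpression libraries by reads. It had 2008, 2097 and 2067 normalized reads with VIM-AS1 and 733.8, 908.9 and 720.3 in controls. The groups did not overlap, and the 3 overexpression libraries lay within 100 normalized reads of each other. The ratio of group means was 2.61, and the difference was 1.39 ± 0.20 on the log2(value + 1) scale, with 1.45, 1.20 and 1.52 over same-numbered libraries. Its SD within groups, 0.13 log2 units, was low for its level on this scaling: 12.9% of the 1783 genes within 1.5-fold of its mean level had a smaller one. Scaled to the library's total reads (CPM), OAS3 was at 110.0, 107.6 and 136.8 with VIM-AS1 and 42.9, 46.6 and 50.8 in controls. The groups stayed apart, but the third overexpression library stood above the first and second. The closeness of the overexpression libraries therefore depends on the scaling.

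OAS1, the neighbour of OAS3 and the smallest synthetase, showed a narrower gap. It had 1198, 1234 and 1005 normalized reads with VIM-AS1 and 985.1, 1065 and 815.1 in controls. The third overexpression library was below the second control, so the groups overlapped. The ratio of means was 1.20, and the log2 difference was 0.26 ± 0.21, with 0.28, 0.21 and 0.30 over same-numbered libraries. Scaled to library size instead, OAS1 was at 65.6, 63.3 and 66.5 CPM (reads scaled by the library's total) with VIM-AS1 and 57.6, 54.6 and 57.4 CPM in controls, and the groups did not overlap. Whether its groups overlap therefore depends on the scaling.

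OAS2, the third gene of the cluster, was close to absent in every library. It had 1, 2 and 1 reads with VIM-AS1 and 1, 0 and 0 reads in controls. All values were under the 3 reads, or 0.151 to 0.203 CPM, that a count of 0 allows, so no fold change is given. OAS2 was also the only member under the filter of a mean value of 1, and the other 3 members were among the genes tested.

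**Figure D1:**
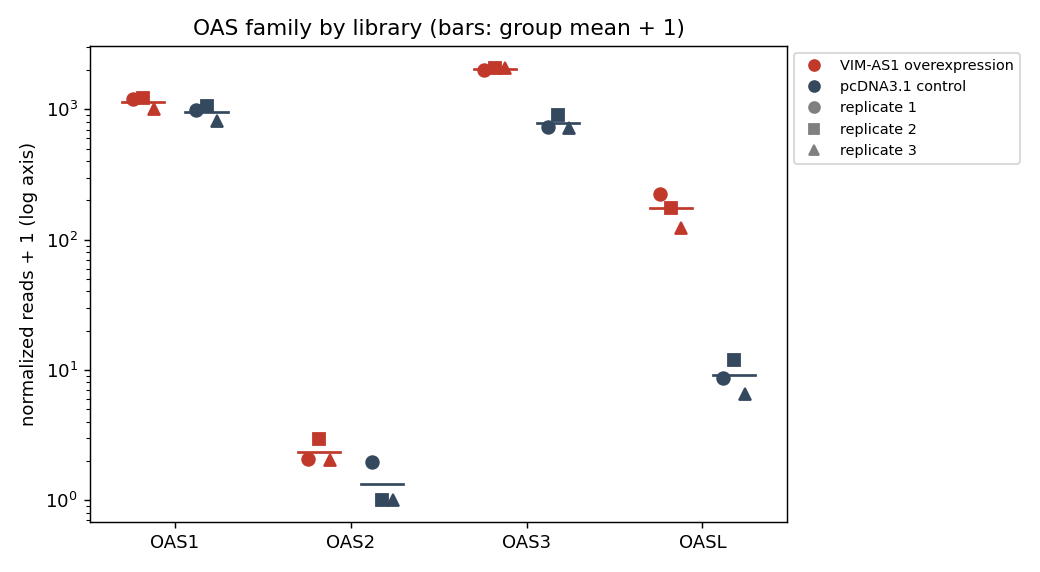
Normalized reads plus 1 of each OAS family member on a log axis, with VIM-AS1 overexpression libraries in red on the left and pcDNA3.1 controls in dark blue on the right. Marker shapes give the replicate number and horizontal bars the group mean. OASL and OAS3 show separate groups, OAS1 overlapping groups, and OAS2 stays at 2 reads or fewer.

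Among the 3 tested members, OASL and OAS3 had groups that did not overlap, both higher with VIM-AS1. Of all 20927 tested genes 9.5% were higher without overlap and 10.3% lower, but the choice of the family used this contrast, so nothing is read from its count. The median log2 difference of all tested genes was -0.02. By size of the difference OAS3 was in place 228 from the top and OAS1 in place 5680.

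The family's makeup differed between the groups. OAS3 reads made up 58.6%, 59.8% and 64.7% of the family's normalized reads with VIM-AS1 and 42.5%, 45.8% and 46.7% in controls. OAS1 made up 34.9%, 35.2% and 31.4% with VIM-AS1 and 57.0%, 53.7% and 52.9% in controls. OASL took 3.84% to 6.45% with VIM-AS1 and 0.359% to 0.554% in controls. OAS3 was thus the leading member in each overexpression library and OAS1 in each control. The ratio of OAS3 to OAS1 reads, which no scaling of whole libraries can change, was 1.68, 1.70 and 2.06 with VIM-AS1 and 0.745, 0.853 and 0.884 in controls. The summed normalized reads of the family were 3377 ± 162 with VIM-AS1 and 1751 ± 223 in controls (SD, n = 3 each).

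**Figure D2:**
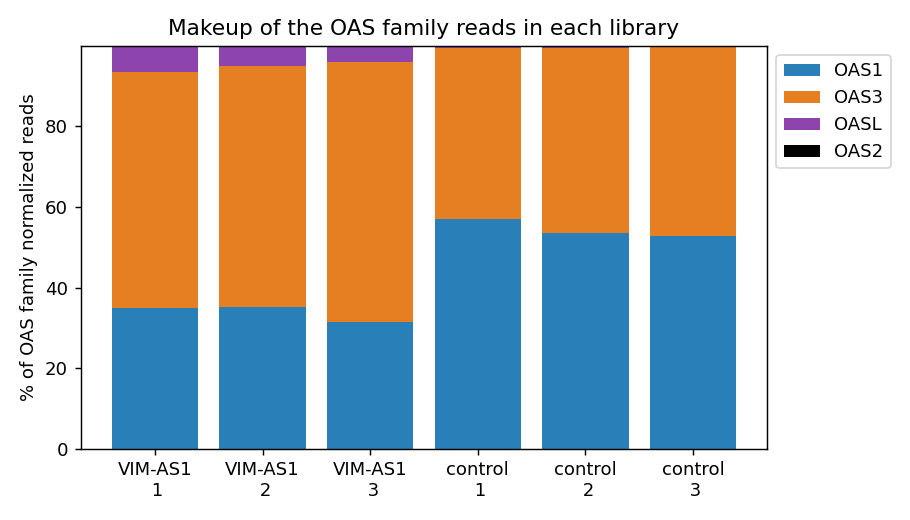
Share of each member in the OAS family's normalized reads (percent, stacked bars), with the 3 VIM-AS1 libraries left of the 3 controls. OAS3 is at 58.6% to 64.7% with VIM-AS1 and 42.5% to 46.7% in controls, and OAS2 is too rare to be seen.

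Levels were also set per kb of all annotated exons of a gene together, 4947 bp over 11 transcripts for OAS1 and 8251 bp over 7 for OAS3. Which transcripts were present was not measured, so the order between members and the places among all genes depend on this divisor. In the overexpression libraries OAS3 stood at 249.3 ± 5.46 and OAS1 at 231.5 ± 24.9 normalized reads per kb of exon (SD, n = 3). Their ranges, 243.4 to 254.1 and 203.1 to 249.3, overlapped. Within the same library the ratio of OAS3 to OAS1 per kb was 1.005, 1.019 and 1.233. Whether the 2 genes were apart was not tested. OASL followed at 49.2 ± 14.0 and OAS2 at 0.215 ± 0.085. In the controls the order was OAS1 at 193.1 ± 25.8, OAS3 at 95.5 ± 12.8, OASL at 2.29 ± 0.783 and OAS2 at 0.0510 ± 0.0884 per kb, with no overlap between neighbours in the order. Set among all 25969 genes per kb, OASL was above 71.3% of them with VIM-AS1 and above 29.2% in controls, OAS3 above 87.9% with VIM-AS1 and 79.0% in controls, and OAS1 above 87.4% with VIM-AS1 and 86.6% in controls.

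Genes that act on 2-5A or its pathway were measured beside the family. PDE12, a phosphodiesterase that degrades 2-5A, was at 216.0, 238.1 and 325.4 with VIM-AS1 and 120.9, 166.2 and 203.8 in controls, with no overlap. CNP, which can hydrolyse 2-5A in vitro, averaged 3150 ± 641 with VIM-AS1 and 2596 ± 648 in controls (SD, n = 3 each here and below). ABCE1, an ATP-binding protein that recycles ribosomes, averaged 715.4 ± 351 with VIM-AS1 and 550.2 ± 222 in controls. AKAP7, also of this list, was at 40.8 ± 7.35 with VIM-AS1 and 41.5 ± 13.3 in controls.

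None of the 70 tested genes of the lists around the family passed limma without a further term (adjusted p under 0.05), where 0.0143% of all tested genes were called higher and 0.00956% lower. At an unadjusted p under 0.05 there were 12 higher and 3 lower, where 5.94% of all tested genes were higher and 7.69% lower. edgeR called none of the 70 and 0.0191% of all tested genes. DESeq2 called only TMEM173 of the 70, and 2.26% of the 15650 genes to which it gave an adjusted p. Some of the 70, such as IFI44 and HERC6, had no adjusted p in DESeq2. Same-numbered libraries deviated together, though mainly through replicate 3, so a fit with the replicate number as a block was set beside it. That fit called 16 of the 70 higher and 10 lower, while it called 15.8% of all tested genes higher and 10.8% lower. As shares these were 22.9% and 14.3% of the lists, and nothing particular to the lists is read from them. With a term for replicate 3 in place of the block, limma called 11 higher and 6 lower, where it called 11.5% and 7.94% of all tested genes, and edgeR with that term called 10 and 7, where it called 11.4% and 8.64%. Below, "called" means an adjusted p under 0.05 in the limma fit with the replicate block, and SE values come from it. The median log2 difference of the 70 genes was 0.10. Without replicate 3 of both groups the block fit called 6 higher and 6 lower, and without replicate 2 it called 9 higher and 4 lower. Of the 26 genes called, 9 were called with each replicate number left out in turn: PDE12, ADAR, TRIM25, TMEM173, IKBKE, IRF7, ISG15, IFI35 and LGALS3BP.

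The list median of the 5 genes of 2-5A turnover was 0.34. With 15.8% of all tested genes called higher and 10.8% lower, 3 of these 5 were called higher and none lower. They were PDE12 (log2 difference 0.67 ± 0.13, adjusted p = 0.000236, limma with the block), CNP (0.29 ± 0.08) and ABCE1 (0.34 ± 0.09). Without replicate 3 of both groups the adjusted p in limma with the block was 0.0236 for PDE12, 0.135 for CNP and 0.17 for ABCE1. Without VIM-AS1 replicate 3 and without the block, the difference of ABCE1 was -0.03.

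Of 16 sensors of foreign RNA or DNA and their adaptors, 5 were called higher and IRF7 lower, with a list median of 0.27. Of all tested genes 15.8% were called higher and 10.8% lower. TMEM173, which encodes the adaptor STING downstream of cGAS, was at 143.3, 144.0 and 79.8 with VIM-AS1 and 41.2, 64.7 and 41.1 in controls. All 3 overexpression libraries were above the controls (log2 difference 1.29 ± 0.21, adjusted p = 3.88e-05, limma with the block). ADAR, the enzyme that edits double-stranded RNA, averaged 4899 ± 271 with VIM-AS1 and 3183 ± 398 in controls, again without overlap. TRIM25, a ubiquitin ligase that activates RIG-I, was at 2305 ± 294 with VIM-AS1 and 1619 ± 299 in controls. The kinase gene IKBKE was at 203.2 ± 41.5 with VIM-AS1 and 122.9 ± 41.6 in controls. PRKRA, the activator of the kinase PKR, was called with a smaller difference (0.30 ± 0.11), and not called without replicate 3 (adjusted p = 0.143, limma with the block). The RIG-I gene DDX58, whose product OASL binds, had 12, 6 and 17 reads with VIM-AS1 and 5, 3 and 14 in controls, and its groups overlapped. IRF3, the factor that can induce OASL directly, was at 1463 ± 395 with VIM-AS1 and 1417 ± 358 in controls (log2 difference 0.04 ± 0.08, adjusted p = 0.756 with the block in limma). IRF7 was at 1153 ± 283 with VIM-AS1 and 1501 ± 330 in controls (-0.39 ± 0.08). MAVS, the mitochondrial adaptor of RIG-I, was at 1516 ± 252 with VIM-AS1 and 1411 ± 301 in controls and was not called.

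Interferon itself was barely represented. Of 9 interferon genes only IFNE had a row, with 2 reads in VIM-AS1 replicate 2 and 1 read in control replicate 3, and the other 8 were not analysed here. The share called over all tested genes was 15.8% higher and 10.8% lower. Of 18 genes of interferon receptors and their signalling 3 were called higher and 2 lower, and 13 were not called, with a list median of 0.03. Those higher included IRF1 (0.39 ± 0.12) and the feedback inhibitor gene SOCS3 (0.33 ± 0.11). STAT2, a subunit of the factor ISGF3 that binds the ISRE, was at 508.9, 486.9 and 412.4 with VIM-AS1 and 617.7, 665.8 and 522.9 in controls, all 3 below the controls (-0.36 ± 0.09, adjusted p = 0.00472, limma with the block). PIAS1, an inhibitor of interferon signalling, was lower too (-0.44 ± 0.15). None of the 5 calls of this list was made without replicate 3, where the adjusted p (limma with the block) was 0.2 for IRF1, 0.151 for SOCS3, 0.0607 for STAT2 and 0.0793 for PIAS1. The receptor kinase genes JAK1 and TYK2 were not called, with JAK1 at 1010 ± 292 with VIM-AS1 and 948.2 ± 221 in controls. IRF9, which encodes another subunit of ISGF3, was at 18.2 ± 8.95 with VIM-AS1 and 23.6 ± 14.0 in controls and was not called either.

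Interferon-stimulated genes outside the family went both ways. Of 31 tested effectors 5 were called higher and 7 lower, and 19 were not called, with a list median of -0.03. Over all tested genes 15.8% were called higher and 10.8% lower. Without overlap between the groups, 7 effectors were higher and 2 lower, where all tested genes had 9.5% and 10.3%. With the replicate 3 term limma called 4 higher and 4 lower, where it called 11.5% and 7.94% of all. No direction is therefore read from this list. ISG15, the ubiquitin-like modifier, was at 1451, 1694 and 925.1 with VIM-AS1 and 1011, 979.8 and 616.9 in controls (log2 difference 0.63 ± 0.08, adjusted p = 3.39e-06, limma with the block). Its groups overlapped through the third overexpression library, while each same-numbered pair was higher with VIM-AS1. The other 4 called higher were at low levels. IFIT2, which binds viral RNA, had 20, 42 and 52 reads with VIM-AS1 and 13, 12 and 23 in controls, and the helicase gene DDX60 had 9, 12 and 29 reads with VIM-AS1 and 2, 2 and 9 in controls. IFI44 had 6, 7 and 4 reads with VIM-AS1 and 1, 0 and 0 in controls, and HERC6 had 8, 6 and 7 with VIM-AS1 and 4, 0 and 2 in controls. Without replicate 3 none of these 4 was called, with an adjusted p (limma with the block) of 0.158 for IFIT2, 0.11 for DDX60, 0.0824 for IFI44 and 0.169 for HERC6. The 7 called lower were IFI27 (-1.33 ± 0.40), IFITM1 (-1.07 ± 0.25), LGALS3BP (-0.94 ± 0.15), IFI35 (-0.54 ± 0.08), PARP14 (-0.48 ± 0.16), IFI6 (-0.34 ± 0.12) and IFITM2 (-0.24 ± 0.08). IFI27 had 8, 18 and 22 reads with VIM-AS1 and 68, 29 and 33 in controls, and without replicate 1 its difference was -0.585 and not called (adjusted p = 0.361, limma with the block). IFI27 was also not called without replicate 2 (adjusted p = 0.0871). IFI6 was not called without replicate 1 or without replicate 2, IFITM1 not without replicate 2, PARP14 not without replicate 1 or 3, and IFITM2 not without replicate 2 or 3. IFITM1, whose product blocks virus entry, was at 41.1, 37.2 and 20.5 with VIM-AS1 and 75.8, 100.2 and 40.3 in controls. The classical effectors IFIT1 and MX1 were not called. IFIT1 was at 67.1 ± 15.4 with VIM-AS1 and 77.2 ± 16.1 in controls, and MX1 at 10.6 ± 2.95 with VIM-AS1 and 9.18 ± 2.13 in controls.

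**Figure D3:**
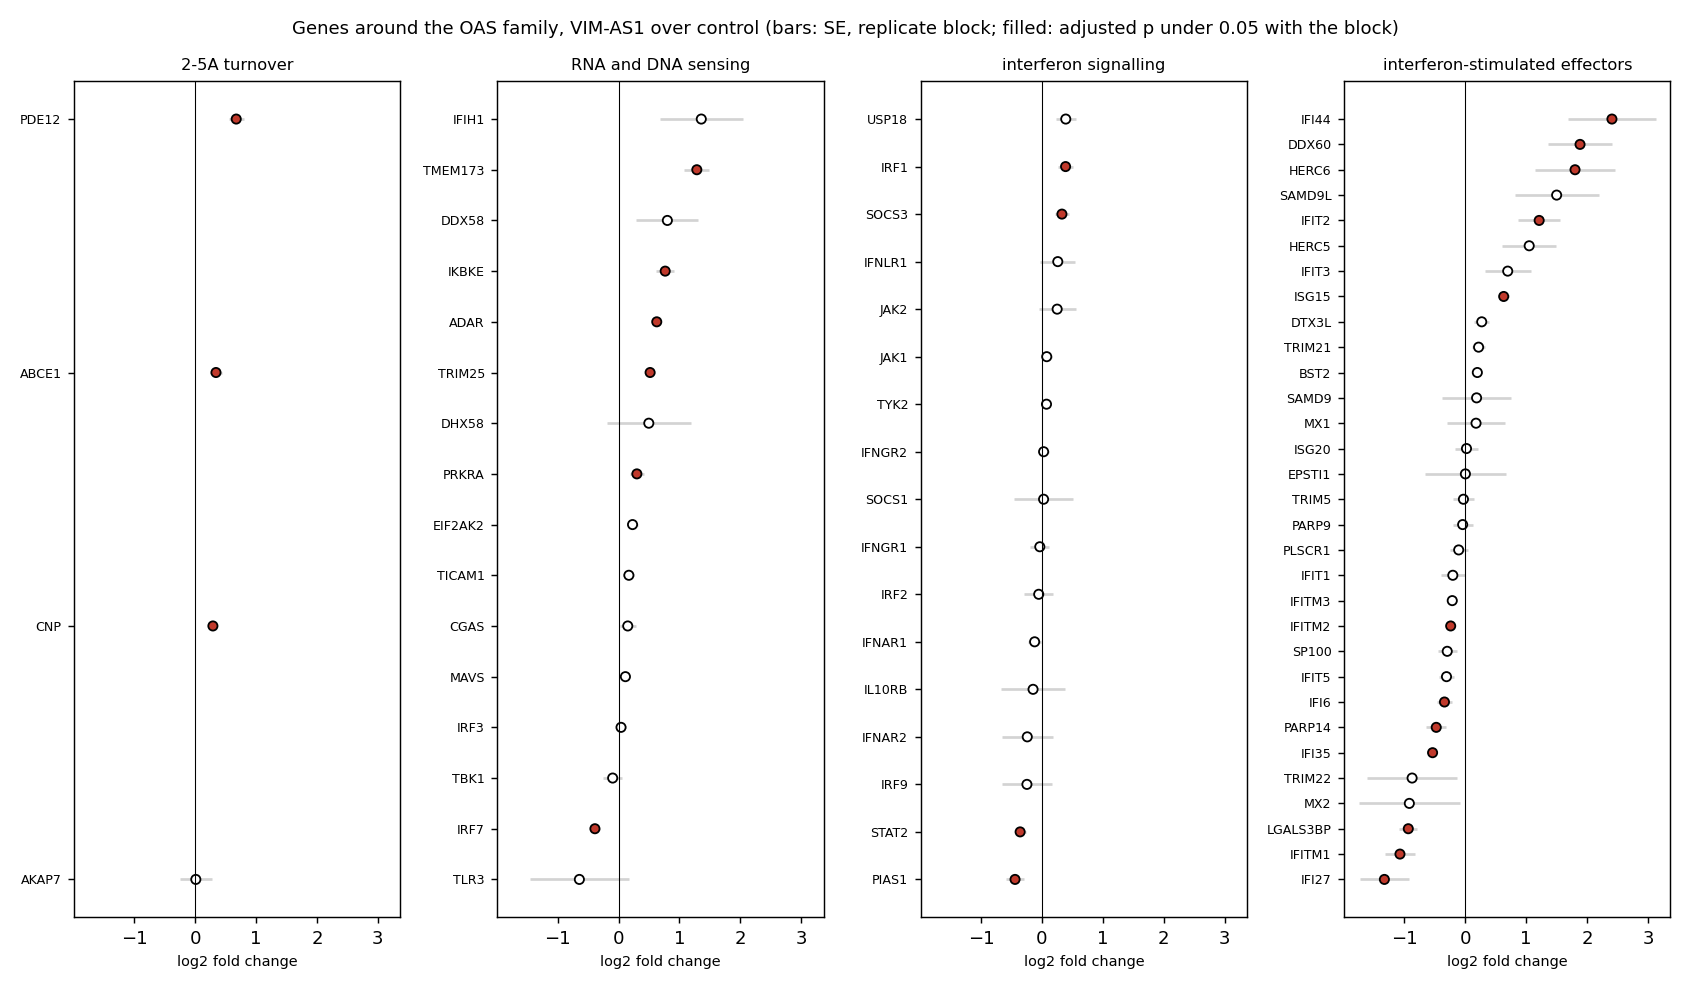
Log2 difference of VIM-AS1 over control for genes of 4 lists around the OAS family, 1 panel a list and 1 row a gene, with the SE from the limma fit with the replicate block. Filled points have an adjusted p under 0.05 in that fit: 3 of 4, 6 of 16, 4 of 17 and 12 of 31 genes drawn, with both directions in every list but 2-5A turnover. Values of genes with few reads, such as IFI44, depend on the added 1.

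ISRE cores were found in promoters of effectors called in either direction. Of 32 effector genes with a window, 25 held the 2-base form and 11 the 1-base form. A match to either form was found for 3 of 4 effectors called higher that have a window, for 6 of 6 called lower and for 15 of 17 not called. Stretches around the matches are given for 3 effectors that were called higher and for 2 called lower, for comparison with OAS1 and OAS3, with capitals on the same 2 motifs (RefSeq, GRCh38.p14). The genomic positions are chr1:1013374-1013409 on the plus strand for ISG15, chr4:168318786-168318850 on the minus strand for DDX60, chr1:78649761-78649795 on the plus strand for IFI44, chr11:313990-314053 on the plus strand for IFITM1 and chr17:78979962-78979991 on the minus strand for LGALS3BP.
ISG15: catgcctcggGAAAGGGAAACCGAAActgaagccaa
DDX60: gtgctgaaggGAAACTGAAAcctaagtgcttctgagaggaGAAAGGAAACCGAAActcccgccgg
IFI44: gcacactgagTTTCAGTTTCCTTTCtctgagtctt
IFITM1: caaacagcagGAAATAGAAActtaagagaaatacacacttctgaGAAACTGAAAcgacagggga
LGALS3BP: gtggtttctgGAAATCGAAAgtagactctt
In IFI44 the core lies on the opposite strand and is read here as TTTCAGTTTC. Among genes called higher, the 2-base copy nearest the start was at bases -18 to -9 in IFI44, -53 to -44 in DDX60 and -107 to -98 in ISG15. Among those called lower it was at -6 to 3 in IFITM1 and -58 to -49 in LGALS3BP.

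**Figure D4:**
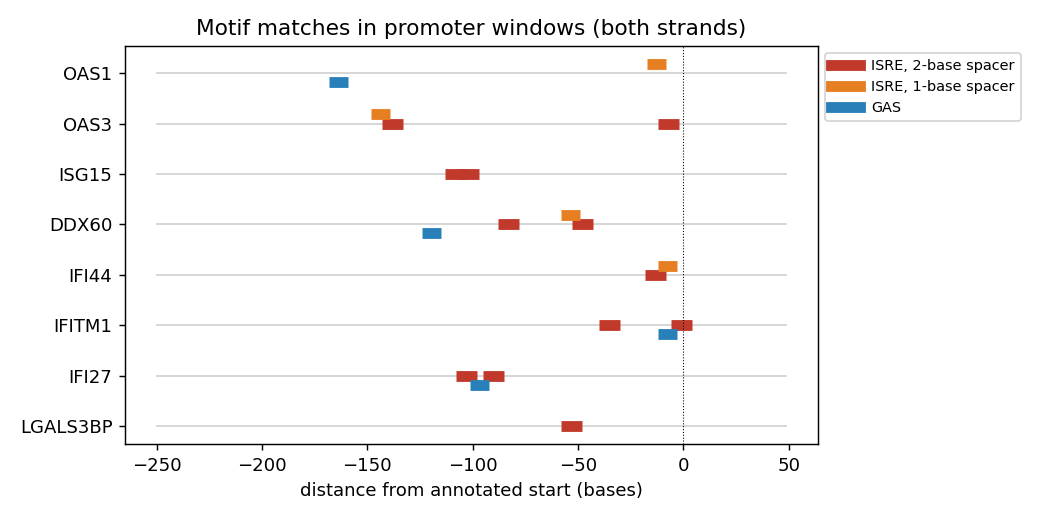
Positions of ISRE-type and GAS motif matches in the promoter windows of OAS1, OAS3 and 6 other interferon-stimulated genes, as distance from the annotated start in bases (first window of each gene). Matches to either ISRE form appear in genes above and below control, and OAS1 has a single ISRE-type match, at -17 to -9.

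Genes beside the OAS loci were also examined. Within 250 kb of the OAS1, OAS3 and OAS2 cluster 8 genes were tested, the nearest 138.1 kb away, and 2 were called higher and none lower. These were DDX54, a nucleolar helicase gene at 4641 ± 966 with VIM-AS1 and 3121 ± 885 in controls (log2 difference 0.60 ± 0.08), and RITA1 (0.44 ± 0.08). The same fit called 15.8% of all tested genes higher and 10.8% lower, so nothing is read from such small counts. Around OASL 5 genes were tested and 2 were called higher. CAMKK2, a kinase gene 198.4 kb from OASL and one of these, was at 999.4 ± 60.9 with VIM-AS1 and 758.5 ± 96.3 in controls, without overlap (0.40 ± 0.08), and was not called without replicate 3 (adjusted p = 0.0544, limma with the block). P2RX4, an ion channel gene 170.6 kb away, was at 226.2 ± 66.7 with VIM-AS1 and 178.0 ± 40.7 in controls and was not called. Each neighbour with a mean of at least 20 in either group had a log2 difference smaller than that of OAS3. OAS3 and OASL were chosen for their large differences, so nothing is read from this. OAS1, at 0.26, lay among the neighbours, under DDX54 and RITA1 and above TPCN1 (0.16) and SPPL3 (0.17). None of the neighbours passed limma without the block.

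**Figure D5:**
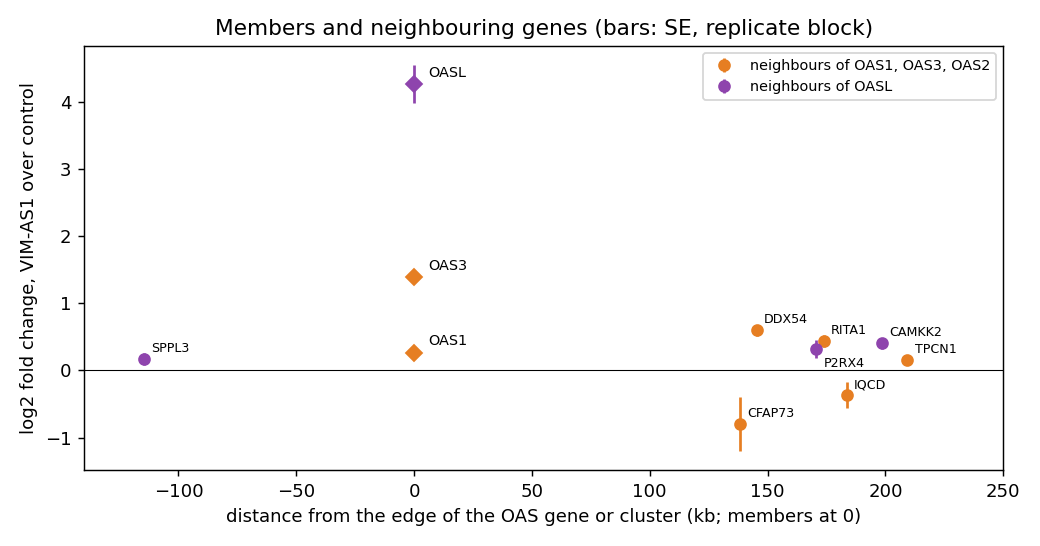
Log2 difference of VIM-AS1 over control with its SE (limma with the replicate block) for neighbours within 250 kb of the OAS cluster (orange) or OASL (purple) with a mean of at least 20 in either group, against distance in kb. Members are drawn as diamonds at 0. OASL at 4.27 and OAS3 at 1.39, chosen for their large differences, stand above all neighbours shown, and OAS1 at 0.26 lies among them.

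The genes whose values across the 6 libraries were most like those of the 2 leading members were found by Pearson r on log2(value + 1) among 13174 other genes with a mean of at least 20. For OASL they were PARP1 (r = 0.997), PRPF4 (0.995), PDIA4 (0.995), SLC25A15 (0.995) and TRIM14 (0.994). For OAS3 they were EI24 (0.998), IFT46 (0.997), NUP98 (0.997), FUCA2 (0.997) and NRDE2 (0.997). The 6 points share 2 groups, so any gene that separates the groups well comes close, and 5.07% of the genes had an r above 0.9 with OASL and 4.80% with OAS3. None of these 10 genes had a difference as large as its OAS member, the widest being that of SLC25A15, at 339.8 ± 29.9 with VIM-AS1 and 142.6 ± 22.4 in controls (log2 difference 1.25).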

How the data were processed

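Gene expression was measured in 6 libraries, 3 per group, from 1.3 µg of total RNA each, with the NEBNext Ultra RNA kit per the labels' protocols. Per the submitters' processing notes the authors used fastp, HISAT2 with hg38, and featureCounts, and the sources used here give no version, annotation or strand setting. The deposited values are a signal per gene, gene counts divided by 1 factor per library: 100% of the 25969 values of each library were whole multiples of 1 step within 0.01 read. No pair of libraries within a group agreed within sampling noise (chi-square over degrees of freedom was 7.14 to 69.2).

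IDs were matched to GENCODE 29 (100%). The main test was limma 3.58.1 (R 4.3.3) with an intensity trend on log2(value + 1) for 20927 genes with a mean of at least 1, two-sided, Benjamini-Hochberg adjusted at 0.05 over all of them. edgeR 4.0.16 and DESeq2 1.42.0 were run on recovered reads. Deviations of same-numbered libraries from their group means correlated with r of 0.319, 0.724 and 0.843 over 13175 genes, so by a rule of r over 0.1 in each pair the number was taken to pair the libraries, a link the labels do not state. VIM-AS1 replicate 1 correlated more with control replicate 2 (0.418), and VIM-AS1 replicate 2 reached 0.328 with control replicate 1. The rule thus also passes with replicates 1 and 2 of 1 group swapped, and cannot identify their pairing. Replicate 3 correlated negatively with replicates 1 and 2 of the other group (-0.772 to -0.407). The values mainly separate replicate 3 from the others. The members and lists were chosen with earlier results of these data known. Named were the members, list genes past the threshold or abundant, neighbours within 250 kb and the 5 likest genes. A few genes are counted in the lists but not reported here. Fold changes are VIM-AS1 over control.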

Additional observations from a re-analysis of the deposited data

How the results depend on the processing

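The log2 differences of OAS1, OAS3 and OASL moved by less than their spread between replicates under every alternative run: 0.20 to 0.27, 1.33 to 1.39 and 4.22 to 4.47 over other scalings, filters, tools and terms, and 0.16 to 0.36, 1.32 to 1.499 and 4.05 to 4.49 with single libraries left out. Library size scaling moved the median gene by -0.09 log2 units. Limma without a further term called 5 genes. It called 28 with library size scaling and 17 with no filter, DESeq2 called 353, and the count was 4065 with a term for replicate 3, 4199 with that term in edgeR and 5571 with the replicate block. Leaving out single libraries gave 1 to 6, and with the replicate 3 term 2666, 2450 and 280 without VIM-AS1 replicates 1 to 3, and 4338, 3512 and 236 without control replicates 1 to 3. The replicate block with a pair left out, an alternative chosen after seeing the data, called 5579, 3427 and 2686 without replicates 1 to 3. Among the 70 pathway genes the counts higher and lower were 0 and 0 without a term, 1 and 0 by DESeq2, 11 and 6 with the replicate 3 term, 10 and 7 with it in edgeR, and 16 and 10 with the replicate block. With single libraries left out they were 7 to 12 and 3 to 7 with the replicate 3 term, 0 and 0 where a replicate 3 was left out, and with the block 16, 9 and 6 higher and 8, 4 and 6 lower without replicates 1 to 3. The difference of ABCE1 ran from -0.032 without VIM-AS1 replicate 3, a reversal, to 0.65 without control replicate 3. The cause of these moves was not tested. At this depth OAS2 and the interferon genes could not be compared.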
